A study of Drosophila melanogaster with 3 samples.

Results

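The genes described here are X-linked genes of Drosophila melanogaster whose RNA was at least 2-fold higher in male than in female larvae, without the non-coding RNAs roX1 and roX2. They number 208 of 1734 X-linked genes whose average over the 3 groups reached 1 CPM (counts per 1000000 transcript counts), called kept genes from here on. Members were chosen by the male and female values themselves, as (male + 1 CPM)/(female + 1 CPM) of at least 2, so the male over female differences given below describe the choice and test nothing. With roX1 and roX2 counted, 210 of the 1734 genes, 12.1%, passed the same fold, and 50 genes, 2.88%, were at least 2-fold lower in males.

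RNA was sequenced from whole larvae of the third instar in 3 groups, called metafemale, male and female by sex type, all from stocks kept at 20 °C. A metafemale has the autosome pairs of a normal female and an additional X chromosome, males have a single X and a Y, and females have a pair of X chromosomes. The labels give no strain, allele, cross or age in hours for any group. Each group had 3 biological repeats that the authors merged into 1 deposited value per transcript, so no spread between repeats can be given, no p-value is printed, and a difference between groups has no replicate check.

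In Drosophila the male gonad is well advanced at this stage: the larval testis is filled with primary spermatocytes, which transcribe a large set of genes whose products are used in meiosis and in building the sperm. The larval ovary is small and its oocytes have not yet formed. Many genes needed only in sperm are relatives of widely used genes, such as dynein, proteasome, thioredoxin or mitochondrial genes, and young genes often gain testis expression first. The single male X is also transcribed at a raised rate by the MSL complex, which contains the roX RNAs. In RNA of whole animals, fewer cells of a type and less RNA per cell cannot be told apart.

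Genes that mark the sexes followed the labels. roX1 was at 388 CPM in males, against 17.7 CPM in metafemales and 20.7 CPM in females, and msl-2, the MSL subunit that females repress, was at 20.8 CPM in males, 6.005 CPM in metafemales and 7.62 CPM in females. Sxl, the female switch gene, was at 86.4 CPM in metafemales, 27.3 CPM in males and 103 CPM in females. Autosomal testis genes stood beside the X-linked ones: of 24 spermatocyte and spermatid products such as betaTub85D and Mst87F, the summed level was 13.0 CPM in metafemales, 1616 CPM in males and 18.1 CPM in females, and none was listed at 0. A gene of that list used in many tissues, cher, lay within 2-fold. Of 9 kept regulators of spermatocyte transcription, such as can, sa and topi, 8 were at least 2-fold higher in males than in females (all kept autosomal genes, 15.9%), as were 2 of 4 kept genes of the early germline (bgcn and stil). Most of these were under 1 CPM outside males and kept through the male value, which largely fixes the call. Of 11 early germline genes listed, those the filter left out lay within 2-fold on the value + 1 CPM scale. All of them were higher in males, at levels where the added 1 CPM hides a male excess. For example, nos was at 1.15 CPM in males and 0.162 CPM in females, and aub at 1.95 and 0.507 CPM. The kept piwi and ovo were at log2 differences of -0.32 and -0.34. The regulators aly and comr, also left out, were past 2-fold. None of 6 kept genes of the somatic gonad and none of 3 kept genes of the female fat body and ovary was 2-fold higher in males, and Yp2, a yolk protein gene, was 2-fold lower. In metafemales against females no gene of these lists was 2-fold higher, and 4 were 2-fold lower: Mst87F, eya, Wnt2 and Yp2. Of all kept autosomal genes, 4.26% were 2-fold higher and 12.3% were 2-fold lower in metafemales. These shares are not alike, since a gene under 1 CPM in females cannot be called lower once 1 CPM is added. Most of the spermatocyte and spermatid products were under that level. The part that testis tissue has in the X-linked values was not tested.

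Most of the 208 genes were near silent outside males. Their values ran from 2.63 CPM through a median of 7.75 CPM to 87.2 CPM in males. In metafemales the lowest was 0.00298 CPM, the median 0.0947 CPM and the highest 56.1 CPM, and in females the lowest was 0.00374 CPM, the median 0.124 CPM and the highest 41.8 CPM. The metafemale and female ranges therefore overlap almost wholly, and the male values sit above both medians for every member. Summed over the members, the deposited values came to 322 CPM in metafemales, 2579 CPM in males and 343 CPM in females, which was 0.390%, 3.87% and 0.476% of the kept X-linked RNA in the same order.

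The members fall into a large and a small class by the female level. The larger class held 173 genes below 1 CPM in females, with a median of 0.0711 CPM in metafemales, 6.13 CPM in males and 0.0943 CPM in females. Of all 1734 kept X-linked genes 190 were below 1 CPM in females. Such a gene can pass the filter only through its male or metafemale value, so the choice itself fixes that most of them are members. The smaller class held 35 genes at or above 1 CPM in females, with medians of 5.40 CPM in metafemales, 16.3 CPM in males and 5.72 CPM in females. No member was listed at 0, although 9 members in metafemales and 5 in females lay at or under the value that 3 sequenced fragments would give.

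**Figure D1:**
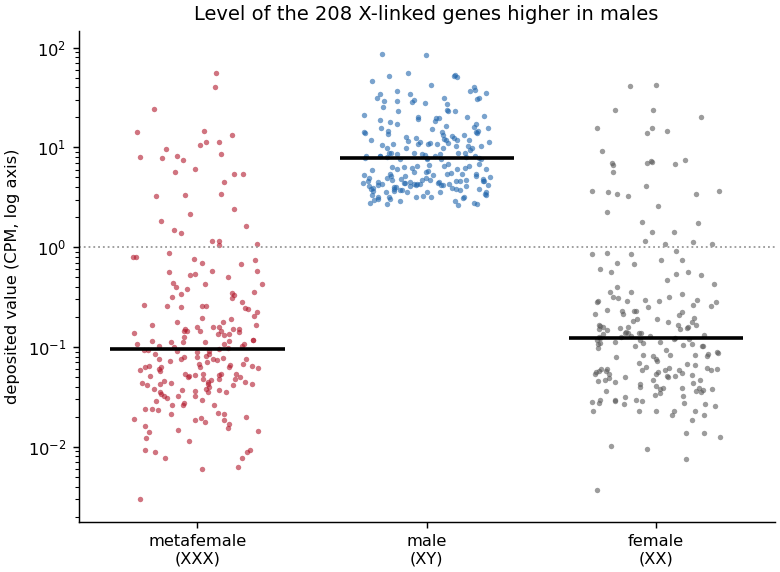
Deposited level in CPM (log axis) of each of the 208 X-linked genes in metafemales, males and females; a point is 1 gene, a bar the median and the dotted line 1 CPM. The male points lie between 2.63 and 87.2 CPM, while most metafemale and female points lie under 1 CPM, around medians of 0.0947 and 0.124 CPM.

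The size of the male excess varied widely among the members. On the value + 1 CPM scale, 180 of the 208 were at least 3-fold higher in males, 120 at least 5-fold, 52 at least 10-fold, 18 at least 20-fold and 2 at least 40-fold, around a median log2 difference of 2.47. The 2 genes past 40-fold were CG8565, a protein-coding gene, and CR32690, a long non-coding RNA gene. CG8565 was at 0.0927 CPM in metafemales, 56.1 CPM in males and 0.227 CPM in females. CR32690 was at 0.0320 CPM in metafemales, 52.7 CPM in males and 0.179 CPM in females. Without the added 1 CPM, males exceeded females 246-fold for CG8565 (95% counting interval 187 to 331) and 294-fold for CR32690 (216 to 411). These intervals cover counting error only.

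The next genes in the order were CG1394, CG15306, TrxT and hydra. TrxT, a thioredoxin of the testis, was at 0.0629 CPM in metafemales, 37.9 CPM in males and 0.212 CPM in females. hydra, a young gene with testis expression found in a few Drosophila species, was at 0.0507 CPM in metafemales, 34.9 CPM in males and 0.121 CPM in females. CG1394 reached 46.5 CPM and CG15306 40.1 CPM in males, and both were at or under 0.207 CPM in metafemales and females. The largest plain ratio of the first 20 belonged to CR32657, a non-coding RNA gene, at 0.0115 CPM in metafemales, 23.6 CPM in males and 0.0330 CPM in females, a 715-fold male excess whose wide counting interval of 354 to 1720 reflects the few female fragments. The rest of the 20 were CG32652 (annotated as the non-coding RNA gene CR32652), CG1324, CG32548, CR32658, CG34434, CG32703 (Erk7), CG2750, CG7349 (SdhBL), CG12470, CG15208, CG4198, CR42767 and CG1999, between 19.3 and 34.5 CPM in males.

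**Figure D2:**
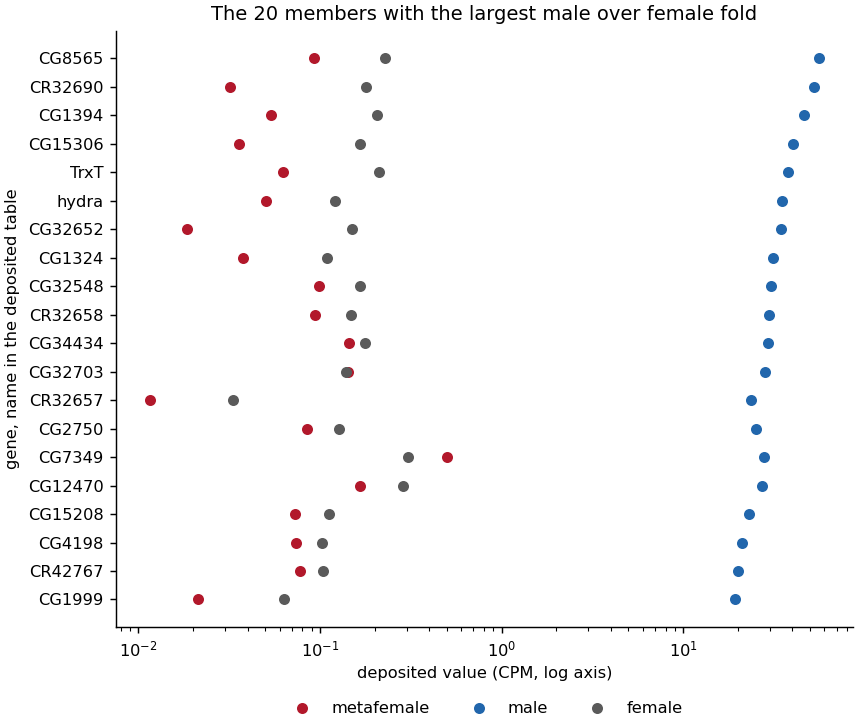
Deposited level in CPM (log axis) of the 20 genes with the largest male over female fold, with 1 row per gene and 1 point each for metafemales, males and females. All male points lie at 19.3 CPM or above and all others at 0.504 CPM or below; the metafemale point is left of the female point in 18 of the 20 rows.

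Non-coding RNA genes were a small but strong group. RefSeq annotates 15 of the kept X-linked genes as lncRNA genes, and 10 of these 15 were members: CR32690, CG32652, CR32658, CR32657, CR42767, CR32661, CG42657, CR32660, CG33218 and CG32582. Their male level ran from 4.81 to 52.7 CPM around a median of 17.0 CPM, against at most 0.380 CPM in metafemales and 1.09 CPM in females. Their median log2 male over female difference was 3.99, beside 2.47 for all members. The 5 that were not members were roX1, roX2, CR42491, CR42861 and CR33963, of which roX1 and roX2 passed the fold and were left out by name. Members made up 12.0% of all kept X-linked genes. Of the 10 lncRNA members, all but CR32660 were under 1 CPM in females and metafemales. They were kept through the male value, which largely fixes the call. No function is described here for these RNAs.

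Many members have not been given a gene name. Of 207 members matched to a RefSeq gene, 197 were protein coding, and 151 carried only a CG or CR number, beside 716 of 1730 matched kept X-linked genes. The 56 members with another name include 41 whose role is described below, ordered by that role.

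Genes of the cilium, the axoneme and the centriole formed a group of 7. The axoneme is the microtubule core of the sperm tail, and in flies only sperm and some sensory neurons build it. Dhc16F, a heavy chain of axonemal dynein, was at 0.538 CPM in metafemales, 14.3 CPM in males and 0.469 CPM in females. Gas8, part of the complex that links axonemal dyneins, was at 0.153 CPM in metafemales, 5.14 CPM in males and 0.107 CPM in females. In both genes the metafemale value lay above the female value and both lay far below the male value.

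tilB, needed for dynein arms in hearing organs and sperm, was at 1.40 CPM in metafemales, 4.08 CPM in males and 0.599 CPM in females, and unc, a basal body protein, was at 0.702, 2.70 and 0.749 CPM in the same groups. Their log2 male over female differences were 1.67 for tilB and 1.08 for unc, and sensory neurons are known to use both genes. The neighbouring centriole genes Alms1a and Alms1b differed in level: Alms1a was at 4.54 CPM in metafemales, 20.8 CPM in males and 5.72 CPM in females, and Alms1b at 0.108 CPM in metafemales, 6.70 CPM in males and 0.127 CPM in females. Sdic1, a sperm dynein intermediate chain, was at 0.0190 CPM in metafemales, 3.01 CPM in males and 0.0324 CPM in females. Sdic1 belongs to a tandem family of near-identical copies, of which Sdic2 and Sdic4 were listed at 0 in all groups, so how reads were divided among the copies is uncertain.

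Read on the wider axoneme and cilium list, which spans all chromosomes, 15 of 20 kept genes were at least 2-fold higher in males than in females, and all 3 X-linked ones, Dhc16F, Gas8 and tilB, were members. The same call was met by 15.9% of kept autosomal and 12.1% of kept X-linked genes. The list's median log2 difference was 3.15, beside -0.04 for all kept genes. Of the 15, all but Dhc62B and tilB were under 1 CPM in both other groups and were kept through the male value. That largely fixes the call, so nothing is read from this count and median. Dhc93AB, nompB, Oseg2 and Oseg5, which the filter left out, lay within 2-fold. In metafemales against females no gene of the list was 2-fold higher and 1 was 2-fold lower (4.26% and 12.3% of kept autosomal genes), with a median of -0.10 beside -0.22 for all kept genes. Most kept genes of the list were under 1 CPM in females and cannot be called lower once 1 CPM is added. The added 1 CPM also shrinks their differences, so these shares and medians are not alike. On a list of X-linked testis gene families, 5 of the 6 kept X-linked genes were members: Sdic1, SkpD, hydra, Dhc16F and CG12395. The sixth, SkpA, the widely used ubiquitin ligase adaptor, was at 98.6 CPM in metafemales, 109 CPM in males and 135 CPM in females. The 5 members were all under 1 CPM in females and metafemales and were kept through the male value. That largely fixes the call, so nothing is read from this count. SkpC, SkpE, Sdic2, Sdic3, Sdic4 and the Stellate genes of the list did not pass the filter.

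Relatives of ubiquitin and proteasome genes contributed 4 members, all below 1 CPM in females. Prosbeta2R1, a relative of a catalytic proteasome subunit, was at 0.0428 CPM in metafemales, 3.81 CPM in males and 0.0229 CPM in females. Rpn13R and Uch-L5R, relatives of a proteasome ubiquitin receptor and of the deubiquitinase it binds, were at 4.37 and 5.06 CPM in males. In metafemales they were at 0.112 and 0.0626 CPM, and in females at 0.157 and 0.0381 CPM. SkpD, a relative of SkpA, was at 0.0532 CPM in metafemales, 4.13 CPM in males and 0.0126 CPM in females. The 4 genes had similar log2 male over female differences, between 2.21 and 2.55.

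Kinases, phosphatases and their inhibitors gave a further 4. Erk7, an atypical MAP kinase, was at 0.143 CPM in metafemales, 28.2 CPM in males and 0.138 CPM in females. Pp1-13C, a catalytic subunit of protein phosphatase 1, was at 0.0532 CPM in metafemales, 10.7 CPM in males and 0.0520 CPM in females. I-3, an inhibitor of that phosphatase, was at 0.00895 CPM in metafemales, 3.60 CPM in males and 0.0227 CPM in females. The metafemale value of I-3 lies below the 3-fragment value of 0.0112 CPM. Alp11, an alkaline phosphatase, was at 0.566 CPM in metafemales, 4.94 CPM in males and 0.402 CPM in females.

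Mitochondrial proteins formed a group of 8 that split by level. SdhBL, a relative of the iron-sulfur subunit of succinate dehydrogenase, was at 0.504 CPM in metafemales, 27.99 CPM in males and 0.307 CPM in females. Fer3HCH, the mitochondrial ferritin, was at 0.0413 CPM in metafemales, 3.88 CPM in males and 0.0463 CPM in females. The other 6, all above 1 CPM in females, had smaller male excesses. NdufA3, a subunit of respiratory complex I, was at 14.5 CPM in metafemales, 34.6 CPM in males and 14.7 CPM in females. Ant2, an adenine nucleotide carrier, was at 10.5 CPM in metafemales, 23.3 CPM in males and 7.39 CPM in females. tko, a mitochondrial ribosomal protein, was at 7.41 CPM in metafemales, 19.7 CPM in males and 9.27 CPM in females.

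Fum2, a fumarase, was at 6.06 CPM in metafemales, 9.79 CPM in males and 4.06 CPM in females. Its metafemale value stood between the other groups. Tyler and Shawn, mitochondrial carriers, had nearly equal values, at 5.40 and 5.39 CPM in metafemales, 8.88 and 8.72 CPM in males and 3.62 and 3.61 CPM in females. A transcript of Tyler and the transcript taken for Shawn had the same log2 male over female difference, 1.07597. Whether Tyler and Shawn were counted from the same reads was not tested, so they may not count as separate members.

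Meiosis genes gave 3 members that were also measured above 1 CPM in females. mei-217 and mei-218, which are needed for crossing over in female meiosis and share a transcription unit, were at 7.81 and 7.97 CPM in metafemales, 31.5 and 31.2 CPM in males and 6.77 and 7.10 CPM in females. Whether mei-217 and mei-218 were counted from the same reads was not tested. corolla, a protein of the synaptonemal complex of females, was at 0.679 CPM in metafemales, 9.49 CPM in males and 1.13 CPM in females. Male flies form neither crossovers nor a synaptonemal complex, so these genes are best known from the ovary, yet their RNA was 2-fold or more higher in male larvae. On the list of meiosis and cell cycle genes, 4 of 14 kept genes were at least 2-fold higher in males, beside 15.9% of kept autosomal and 12.1% of kept X-linked genes, and mei-218 was the only member among its 5 kept X-linked genes. The other X-linked ones, Klp3A, Klp10A, nod and mei-9, lay within 2-fold.

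Genes of late sperm development appeared as p-cup and r-cup, members of a class transcribed in spermatids after meiosis. p-cup was at 0.0425 CPM in metafemales, 4.29 CPM in males and 0.0448 CPM in females, and r-cup at 0.530 CPM in metafemales, 7.68 CPM in males and 0.862 CPM in females. eIF4E7, a cap-binding translation factor, was at 0.0629 CPM in metafemales, 11.3 CPM in males and 0.0583 CPM in females. Its metafemale and female values were nearly equal. Lower in the order came Cnep1r1, related to a regulator of a nuclear envelope phosphatase, at 5.67 CPM in males. Inx5, a gap junction innexin, was at 3.45 CPM and Cnx14D, a calnexin chaperone, at 3.94 CPM in males. fs(1)N, known for a role in the eggshell, was at 2.79 CPM in males. Of these 4 genes only Cnx14D exceeded 0.3 CPM outside males, with 1.07 CPM in metafemales and 0.926 CPM in females. xmas, which carries a subunit of an mRNA export complex, was at 1.81 CPM in metafemales, 16.2 CPM in males and 1.78 CPM in females.

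Most widely used relatives of the members lay close between males and females. For 12 members with a well-known relative in the tables, 14 relatives were compared, and 13 of these lay within 2-fold on the value + 1 CPM scale. Among these 13 is dhd, the ovarian thioredoxin, which was under 1 CPM throughout, at 0.0548 CPM in metafemales, 0.588 CPM in males and 0.0424 CPM in females, so that the added 1 CPM hides its male excess. Trx-2, the general thioredoxin, was at 75.7 CPM in metafemales, 113 CPM in males and 106 CPM in females, a log2 male over female difference of 0.09, beside 5.01 for TrxT. Differences of Prosbeta2 (-0.17), Rpn13 (0.10), Uch-L5 (0.13), eIF4E1 (0.05), Pp1-87B (-0.25) and SdhB (-0.55) were all small beside those of the members related to them. Fum1 was the exception in the other direction: it was at 182 CPM in metafemales, 52.3 CPM in males and 119 CPM in females, a log2 difference of -1.17, whereas Fum2 differed by 1.09.

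Per kb of transcript, most members stayed below their relative even in males. TrxT was at 34.2 CPM per kb in males and Trx-2 at 84.8 CPM per kb. SdhBL was at 14.4 CPM per kb and SdhB at 23.4 CPM per kb, the closest to equal of the autosomal relatives. Prosbeta2R1 was at 3.54 CPM per kb, beside 89.3 CPM per kb for Prosbeta2. A member exceeded its relative in 2 of the 14 pairs, Pp1-13C over flw (5.68 and 5.46 CPM per kb) and TrxT over dhd (34.2 and 0.617 CPM per kb). Across all 207 members with a known length, male levels ran from 0.424 CPM per kb in fs(1)N to 86.2 CPM per kb in Neb-cGP, around a median of 5.42 CPM per kb. The kept X-linked genes that were not members had a median of 5.26 CPM per kb in males.

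The 35 members at 1 CPM or more in females included the most abundant. CG4068 was at 40.03 CPM in metafemales, 87.2 CPM in males and 41.8 CPM in females, and Neb-cGP at 56.1 CPM in metafemales, 85.1 CPM in males and 41.3 CPM in females. mud, which orients the mitotic spindle, was at 13.4 CPM in metafemales, 51.2 CPM in males and 20.3 CPM in females. fiz, an oxidoreductase listed as CG9509, was at 24.2 CPM in metafemales, 42.1 CPM in males and 13.9 CPM in females. The male excess in these 4 genes was small, with log2 differences of 1.04, 1.02, 1.29 and 1.53.

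Some members stood right at the limit of the choice. Just inside were unc at 2.11-fold, Shawn at 2.11-fold, CG4068 at 2.06-fold, Neb-cGP at 2.03-fold and tko at 2.01-fold. Just outside were sun at 1.95-fold, sno at 1.88-fold, and CG14054, CG3621 and CG7772 at 1.87-fold. Among the 31 members with more than 1 transcript in the table, all transcripts were past 2-fold in 29. The exceptions were CG32806 and Shawn, whose lowest transcripts had log2 differences of 0.41 and 0.42.

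On the value + 1 CPM scale few members differed by 2-fold between metafemales and females. Against females, 204 of the 208 lay within 2-fold in metafemales, 1 was higher by 2-fold or more and 3 were lower. Among all 1734 kept X-linked genes the shares were 7.73% higher and 3.34% lower. The added 1 CPM limits this count, because a gene below 1 CPM in females cannot be called lower. Among the 35 members at 1 CPM or more in females, 1 was higher and 3 were lower in metafemales, beside 8.16% and 3.76% of the 1544 kept X-linked genes at that level. Of the 173 members under 1 CPM in females, 170 were also under 1 CPM in metafemales. Without the added 1 CPM and with the columns as deposited, 14 members were at least 2-fold higher and 38 at least 2-fold lower in metafemales. As deposited, the 95% counting interval of the plain metafemale over female ratio lay above 1 in 31 members and below 1 in 49, for counting error only. The matching shares over all kept X-linked genes are not given for either comparison. The balance of higher and lower members also changes with the scaling, as described below, so nothing is read from these counts.

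The gene that was higher was Tob, a member of the antiproliferative BTG/Tob family. Tob was at 9.59 CPM in metafemales, 16.3 CPM in males and 2.60 CPM in females, a log2 metafemale over female difference of 1.56. Its metafemale value stood between the other groups and nearer to males. The lower genes were Hr4, a nuclear receptor of the ecdysone response, and CG4151. Hr4 was at 1.15 CPM in metafemales, 52.1 CPM in males and 23.6 CPM in females, a log2 metafemale over female difference of -3.51. CG42527, the third name on the list, has the same values as Hr4 and maps to the same gene. CG4151 was at 0.0808 CPM in metafemales, 4.67 CPM in males and 1.17 CPM in females, a log2 difference of -1.003 that lies at the limit of the call and no longer passes it when the columns are rescaled.

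Other members with the largest metafemale excess over females were w, fiz, tilB, Fum2, Twdlalpha, Shawn, Tyler, Ant2 and Neb-cGP. w, the white ABC transporter of eye pigment precursors, was at 14.1 CPM in metafemales, 15.8 CPM in males and 6.91 CPM in females, a log2 metafemale over female difference of 0.94. Twdlalpha, a cuticle protein of the Tweedle family, was at 0.574 CPM in metafemales, 7.95 CPM in males and 0.133 CPM in females. Its metafemale over female ratio without the added 1 CPM was 4.30 (counting interval 2.90 to 6.59), which the added 1 CPM reduces to a log2 difference of 0.47. At the other end, CR32660 was at 0.222 CPM in metafemales, 11.9 CPM in males and 1.09 CPM in females, and CG9030 at 0.245, 4.18 and 0.881 CPM in those groups. CG11294, mud, CG8097, CG15891 and CG15892 completed the 10 lowest, with log2 differences between -0.61 and -0.46. CG15891 and CG15892 have identical values in the table.

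**Figure D3:**
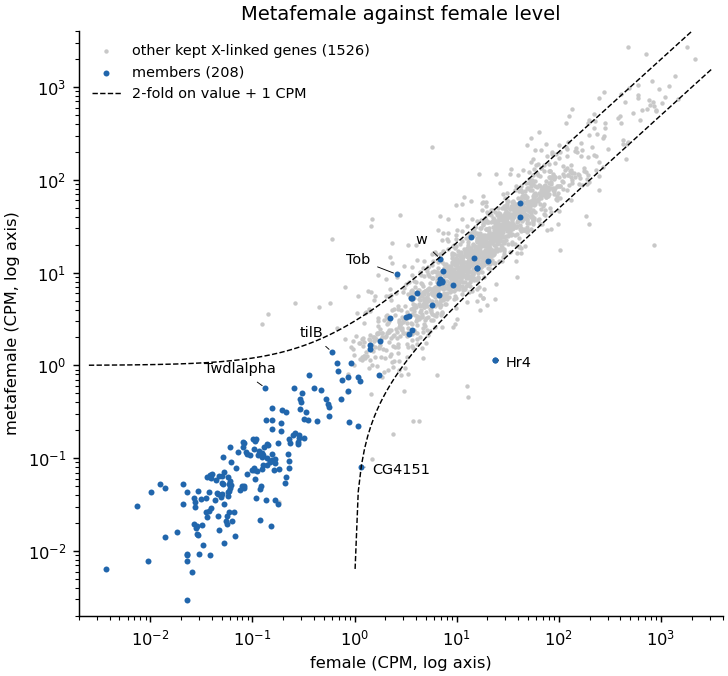
Metafemale against female level in CPM (both axes log) for the 208 members and the 1526 other kept X-linked genes, with the limits of a 2-fold difference on value + 1 CPM as dashed lines. Most members lie under 1 CPM on both axes, Tob lies above the upper limit, and Hr4 and CG4151 lie below the lower one.

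The direction of the members' median depends on how the columns are scaled. As deposited, 84 members were above and 124 below their female value in metafemales, with a median ratio of 0.820 and a median log2 difference of -0.02 on the value + 1 CPM scale. Median-of-ratios scaling shifts metafemale over female values up by 0.41 on the log2 scale, and scaling on autosomal genes by 0.49. Members above female then number 116 and 126, and the median ratio 1.09 and 1.15. The median ratio over all kept X-linked genes was 1.04 as deposited, and 1.38 and 1.46 under those scalings. With either scaling w and fiz join Tob as 2-fold higher in metafemales, with log2 differences of 1.32 and 1.39 for w and 1.16 and 1.23 for fiz.

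Set against males, metafemales were far lower in nearly all members. Of the 208 members 199 were at least 2-fold lower in metafemales, beside 15.3% of all kept X-linked genes, and none was above its male value. This comparison uses the male values by which the members were chosen, so nothing is read from the count. The 9 within 2-fold of males were w, Neb-cGP, Shawn, Fum2, Tyler, Tob, fiz, CG32681 and CG1826. The number was 20 under either scaling, where w stood above its male value. All but CG32681 of the 9 belong to the class at 1 CPM or more in females.

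The RNA found in the other groups was a small share of the male level in most members silent in females. These members were chosen by a low female and a higher male value, which limits the female share in advance. For the 53 members under 1 CPM in females and at least 10 CPM in males, the metafemale value had a median of 0.439% of the male value and the female value a median of 0.546%. The quartiles were 0.179% and 0.925% in metafemales and 0.437% and 1.06% in females. Over all 173 members under 1 CPM in females the medians were 0.926% in metafemales and 1.06% in females as deposited, but 1.26% and 1.09% under median-of-ratios scaling and 1.36% and 1.11% under autosomal scaling, so which group is higher turns with the scaling. For the 20 genes with the largest fold, this share lay between 0.0488% and 1.80% in metafemales and between 0.140% and 1.09% in females, where the ranking by fold fixes a small female share. The metafemale share was the lower in 18 of these 20, in 16 under median-of-ratios scaling and in 15 under autosomal scaling. SdhBL and Erk7 were the exceptions as deposited. The 546 autosomal genes chosen by the same rule and limits had medians of 0.263% in metafemales and 0.534% in females. Where this trace comes from was not tested.

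Genes with a male excess were somewhat rarer on the X than on the large autosomal arms. Under the same rule 1460 of 9208 kept autosomal genes, 15.9%, were at least 2-fold higher in males. By arm the share was 11.995% on the X without roX1 and roX2, 18.9% on 2L, 15.1% on 2R, 15.2% on 3L and 14.7% on 3R. On the small chromosome 4 it was 2.60%, or 2 of 77 genes. The X thus had a lower share than each large arm and a higher share than chromosome 4.

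The members also reached lower levels than the autosomal genes chosen by the same rule. None of the 208 members was at 100 CPM or more in males, against 47 of the 1460 autosomal genes. The X-linked roX1, left out of the members by name, was at 388 CPM in males. Under 1 CPM in females, none of 173 members and 17 of 1182 autosomal genes reached 100 CPM in males. Among genes under 1 CPM in females, the median male level was 5.18 CPM per kb for 172 X-linked members and 7.87 CPM per kb for 1174 autosomal genes, and 20.3% of the members against 37.1% of the autosomal genes were at 10 CPM per kb or more. The first quartile was 3.24 CPM per kb for X-linked and 4.82 CPM per kb for autosomal genes. These shares are given without a test, since each group is 1 pooled value.

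Gene structure was shared between the members and their autosomal counterparts. Of 206 members with an annotated canonical transcript, 69, or 33.5%, had a single exon, against 141 of 1508 other kept X-linked genes, or 9.35%. Among autosomal genes the shares were 32.0% of those higher in males and 9.85% of the rest. The members had a median of 2 exons and a median coding length of 1053 bases, against 4 exons and 1458 bases in the other kept X-linked genes. CG1394 is a single-exon gene among the 6 members with the largest fold, and Erk7, with 9 exons, shows that long gene models occur too. In the BDGP6 annotation, exons of 40 of 207 members overlap those of another gene, 19 on the same strand and 24 on the opposite strand. The counts were made on another build, dm3. Whether counting used strand is not given in the sources used here, so values of the overlapping genes may include reads of the partner.

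**Figure D4:**
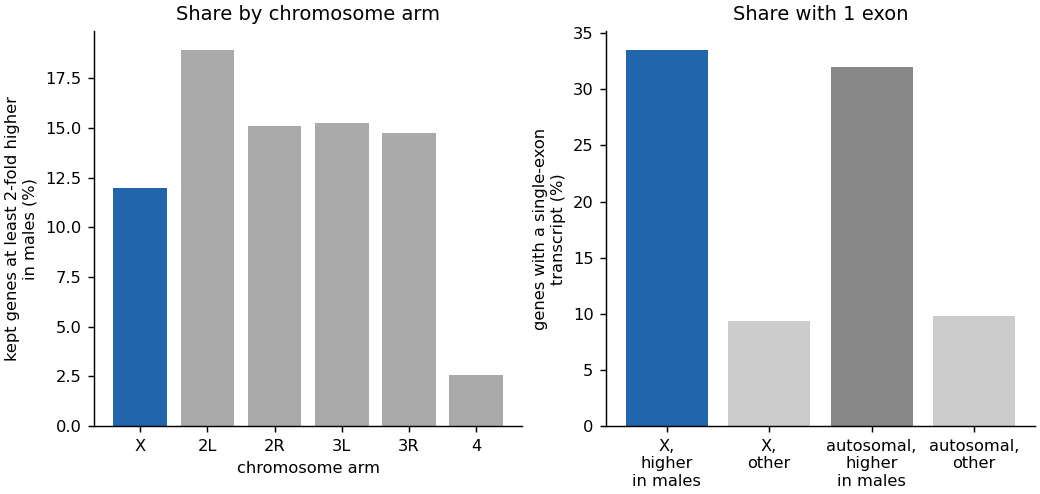
Left, percent of kept genes at least 2-fold higher in males than in females on each chromosome arm, at 11.995% for the X and 18.9% for 2L. Right, percent of genes whose canonical transcript has a single exon, at 33.5% for the X-linked genes higher in males, 9.35% for other X-linked genes, 32.0% for autosomal genes higher in males and 9.85% for other autosomal genes.

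Some members lay next to each other on the X. In the order of the 2705 annotated X-linked genes, 206 placed members made up 7.62%, and 62 of them, 30.1%, had a member as next neighbour on either side. Because a gene has a neighbour on each side, 7.62% is not a like share for the 30.1%. The share that a random placing would give was not computed. There were 27 runs of 2 or more, of which 7 had at least 3. The longest run was CG14269, CG16782, CG10801 and CG16781, between 3.17 and 23.4 CPM in males and at most 0.317 CPM in metafemales and 0.338 CPM in females. A run of CG15734, CR32657 and CR32658 was followed after a gap by CG2750, CG1924 and CG32655, and then by CG32651, CG2574 and CR32652. The others were CG32686, CG2898 and CG32681, the trio CG9101, PPYR1 and CG9106, and the trio CG15446, CG1503 and unc.

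Counted among kept genes alone, so that unexpressed genes between members are skipped, members made up 12.0%. Of the 206, 101 had a member as neighbour on either side, 49.0%, and the same limit holds. The runs from CG15734 to CR32652 then join into 10 members in a row with CG2577 among them. Their male levels ran from 3.32 to 34.5 CPM, and their highest values were 1.64 CPM in metafemales and 1.41 CPM in females, both of CG1924. In 10 blocks of equal gene number along the chromosome, members made up between 6.63% and 21.0% of kept genes, lowest in the first block and highest in the last. Neighbouring genes can overlap or derive from duplication, and neither was separated here.

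**Figure D5:**
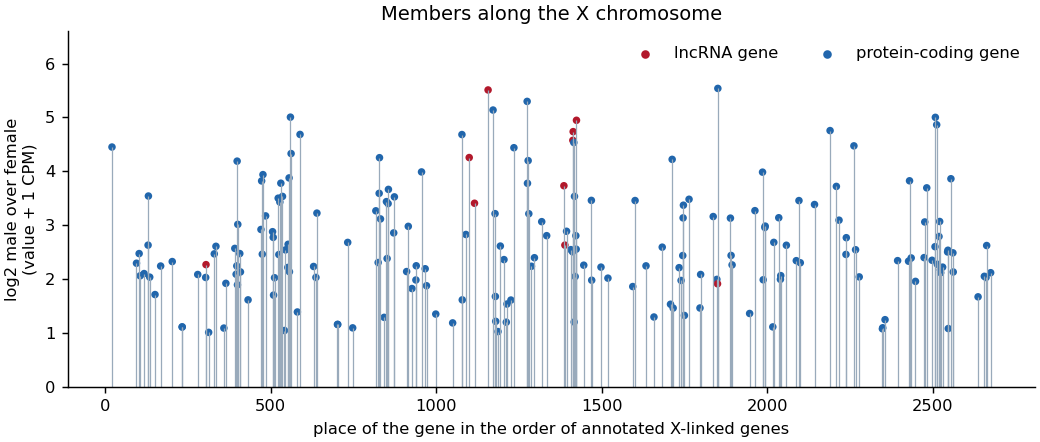
Log2 male over female difference (value + 1 CPM) of the 206 placed members by their place in the order of annotated X-linked genes; a point on a stem is 1 gene, red for lncRNA and blue for protein-coding genes. Members occur along the whole chromosome in groups, with the 10-gene run around the middle holding 3 of the lncRNA genes.

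As for depth, the 3 libraries behind each column were inferred from the step size of low values at 69.0 to 111.7 M fragments in metafemales, 31.6 to 92.4 M in males and 65.6 to 89.2 M in females (M, 1000000). At that depth 3 fragments correspond to 0.0112 CPM in metafemales, 0.0178 CPM in males and 0.0133 CPM in females.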

How the data were processed

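The deposited tables hold 1 value per transcript and group, a fraction of all transcript counts to which the authors merged 3 biological repeats, per the labels and the file headers. TopHat, HTSeq and the build dm3 are named, per the submitters' processing notes; their versions and the strand setting are not given there. Values were multiplied by 1000000 (CPM), each gene was taken by its transcript with the highest mean, and genes with a mean under 1 CPM were left out. Folds use value + 1 CPM and 2-fold counts as called. Because no table has a column per library, the planned limma test was not possible. Library sizes were inferred from values under 0.05 CPM, all of which were whole combinations of 3 step sizes (relative tolerance 1e-05). Intervals (95%) and 3-count limits cover counting error only. Names, lengths, exons, exon overlaps and gene order came from RefSeq and Ensembl 115 (BDGP6), a build other than the dm3 of the counts. Members, gene lists and the rule for named genes (largest folds, highest levels, genes at the threshold, list members, runs, genes of known role) were chosen with earlier results of these data known. The calling step was tested on simulated data. Python 3.11.15 with pandas 2.3.3 was used. Some genes of the axoneme list are not reported here.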

Additional observations from a re-analysis of the deposited data

How the results depend on the processing

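The number of members, 208 as reported, was 214 with 0.1 CPM added, 216 with nothing added, 197 and 192 under median-of-ratios and autosomal scaling, 268 without a filter, 214 with transcripts summed, 248 at 1.5-fold and 160 at 4-fold, but 27 with a mean of at least 10 CPM, a filter that removes most genes silent in females. That filter gave 2.83% of X-linked and 5.80% of autosomal genes higher in males, 1.5-fold gave 14.4% and 20.6%, and 4-fold 9.34% and 12.9%. The autosomal share also moved to 16.6% with nothing added, 15.1% under autosomal scaling and 13.8% without a filter. The X-linked share stayed the lower in each of these settings. The members' median log2 metafemale over female difference, -0.02, was -0.29 with nothing added, -0.17 at 10 CPM and 0.01 under both scalings. Members called higher in metafemales, 1 as reported, numbered 4 with 0.1 CPM added, 14 with nothing added, 3 under each scaling, 4 at 1.5-fold, and 0 at 10 CPM and at 4-fold. Those called lower, 3 as reported, numbered 8 with 0.1 CPM added, 38 with nothing added, 6 at 1.5-fold and 2 under each scaling. With 0.1 CPM or nothing added, the share over all kept X-linked genes is not given, so nothing is read from those counts. The median against males, -2.50, was -4.99 and -6.22 with 0.1 and 0 CPM added, -2.34 and -2.30 under the scalings, -2.21 without a filter and -1.88 at 10 CPM. Among kept genes, runs of 3 or more members numbered 11, against 7 among all annotated genes, and 49.0% of members, against 30.1%, had a member as neighbour. Counting names with the same values once, chosen after seeing the data, gave 206 members.

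No paired analysis was possible because each group is 1 pooled column; leaving out a replicate could not be run for the same reason. The promoter motif and protein identity comparisons were not run. Below about 0.01 CPM a value rests on 3 fragments or fewer.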

Other observations

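Below the filter, 504 X-linked genes had a mean under 1 CPM, and 60 of these were at least 2-fold higher in males than in females. Their male values ran from 1.07 to 2.90 CPM around a median of 2.05 CPM, and none exceeded 0.469 CPM in metafemales or 0.334 CPM in females. SkpC, a relative of SkpD, was among them, at 0.0197 CPM in metafemales, 2.32 CPM in males and 0.0315 CPM in females. The Stellate genes SteXh:CG42398, Ste12DOR and Ste:CG33236 were listed at 0 in all 3 groups, as were Sdic2 and Sdic4.

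The X-linked genes outside the members whose values over the 3 groups most resembled the members' median pattern were CG32706, nmdyn-D6, CG1545, SPR and Tsp5D, by Pearson's r of log2(value + 1 CPM) over only 3 points, then by distance. The nearest, CG32706, was at 0.816 CPM in metafemales, 2.03 CPM in males and 0.862 CPM in females. Log2 male over female differences of these genes were 0.70, 0.25, 0.22, 0.20 and 0.10 in the order named. The members' median was 2.47, so the patterns are alike in shape but not in size.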
